A study of Mus musculus with 214 samples.

Results

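The genes described here serve the presentation of antigens on MHC class II molecules. They are 8 of the 18287 genes measured in both WT and Mgmt-/- mouse livers, and they were chosen by symbol: Cd74, H2-Aa, H2-Ab1, H2-Eb1, H2-DMa, H2-DMb1, Ciita and Ctss. All mice were C57BL6 and carried the RaDR recombination reporter and the gpt reporter transgene on both alleles (RaDR+/+;GPT+/+), in WT and Mgmt-/- alike. Mgmt encodes the methyltransferase that removes methyl groups from O6-methylguanine. Each mouse had an intraperitoneal injection on postnatal day 8 and another on postnatal day 15. Treated mice received N-nitrosodimethylamine (NDMA), a methylating carcinogen that liver cells activate, at 3.5 mg/kg and then 7 mg/kg, and controls received saline. Liver of both sexes was collected early, 1, 2 and 5 days past the second injection, and late, 10 weeks and 10 months past it. Per the study's methods, RNA came from a small piece of liver tissue. RNA was sequenced by 3′ digital gene expression, which counts reads at transcript ends. Treatment was set by litter, and the labels do not name litters, so litter and treatment cannot be told apart. Values were analysed for 117 WT and 96 Mgmt-/- libraries, 1 per mouse, with between 150038 and 7740710 reads each. In the NDMA comparisons a group held between 6 and 26 mice.

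MHC class II molecules are pairs of an alpha and a beta chain that show peptides from the endosomal pathway to CD4 T cells. The classical molecule of this strain is I-A, an alpha chain from H2-Aa joined to a beta chain from H2-Ab1, while H2-Eb1 encodes the beta chain of I-E, whose alpha chain gene is defective in C57BL6 mice. The invariant chain, encoded by Cd74, escorts the new pair to the endosome, where the protease cathepsin S (Ctss) trims it and the H2-DM pair (H2-DMa and H2-DMb1) exchanges its last fragment for a peptide. Ciita encodes the transactivator on which transcription of the class II genes depends. In liver the pathway is best known from dendritic cells, B cells, Kupffer cells and monocyte-derived macrophages, and interferon gamma can induce it in other cells.

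On the GRCm38 build the 5 H2 genes lie close together on chromosome 17: H2-DMa at chr17:34119541-34139101, H2-DMb1 at chr17:34153072-34160230, H2-Ab1 at chr17:34257689-34269419, H2-Aa at chr17:34282744-34287823 on the minus strand and H2-Eb1 at chr17:34305867-34316674. Ctss is at chr3:95526786-95556403 and Ciita at chr16:10480059-10528418. Cd74 lies outside the complex, at chr18:60803848-60812652.

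Levels are given as normalised counts, that is, gene counts divided by a size factor for each library. The size factors were set for each genotype by itself, so a level in WT and a level in Mgmt-/- are not on the same scale. The same holds between genes, since counts at transcript ends were not compared per length, and levels of the members were compared only within a gene. For the marker lists, the most abundant gene is the one with the most normalised counts, and a summed level adds these counts, neither per length. A gene was called higher or lower when its adjusted p-value in limma was under 0.05 and its log2 fold change, on log2(normalised count + 1), was beyond 0.58. In unsorted liver tissue, fewer cells of a type and less RNA per cell cannot be told apart.

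Several libraries stood apart. Of the 8 saline Mgmt-/- libraries at day 5, 2 held kidney transcripts: their Kap level, a gene of kidney proximal tubules, was between 6147 and 7562, against at most 13.9 in the other 94 Mgmt-/- libraries, and they were left out. In WT at day 1, 2 NDMA libraries had sex-linked expression that went against their sex label. The 4 shallowest libraries, with 150038 to 270673 reads, were all NDMA females of WT in batch 200724Eng, 1 each at day 2, day 5, week 10 and month 10. The Mgmt gene itself was at or under 9.67 in every Mgmt-/- library and between 13.0 and 130 in WT. The mean of the hepatocyte markers was 319 to 470 in the 2 kidney libraries and at least 17200 in the others of that genotype.

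A saline male at day 1 in Mgmt-/- also stood far from its group. Its H2-Aa level was 1460, against 39.1 to 110 in the other 11 saline mice, and its Cd74 level was 225 against 6.58 to 17.7. Its Cdkn1a level, a p53 target, was 40.9, within the 12.2 to 44.2 of the other saline mice and below the 347 to 679 of the NDMA mice. Its summed T and NK cell markers were 195 against at most 110, its recruited monocyte markers 1313 against at most 708, and its Ptprc, the common leukocyte antigen, 78.1 against at most 49.7. Its dendritic cell markers summed to 53.9 against at most 31.2 and its Kupffer cell and macrophage markers to 3068 against at most 2301, while its hepatocyte markers summed to 151498 against at least 212073. Its summed B cell markers were 27.9, inside the 19.2 to 72.3 of the others. For the members, the NDMA, genotype and age results that use this library are given with and without it. The day 1 results of the other gene lists and the correlations across libraries are given only with it.

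The question for each comparison was whether NDMA changed the class II genes in livers with or without MGMT, and for how long. In Mgmt-/- liver 7 of the 7 members tested were higher at day 2, at day 5 and at week 10. In WT liver all 7 were higher only at day 5 and none was called at week 10 or month 10. Ciita had too few reads for the filter on low values (a mean of at least 5 normalised counts) in every comparison but Mgmt-/- month 10, so it is described separately.

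**Figure D1:**
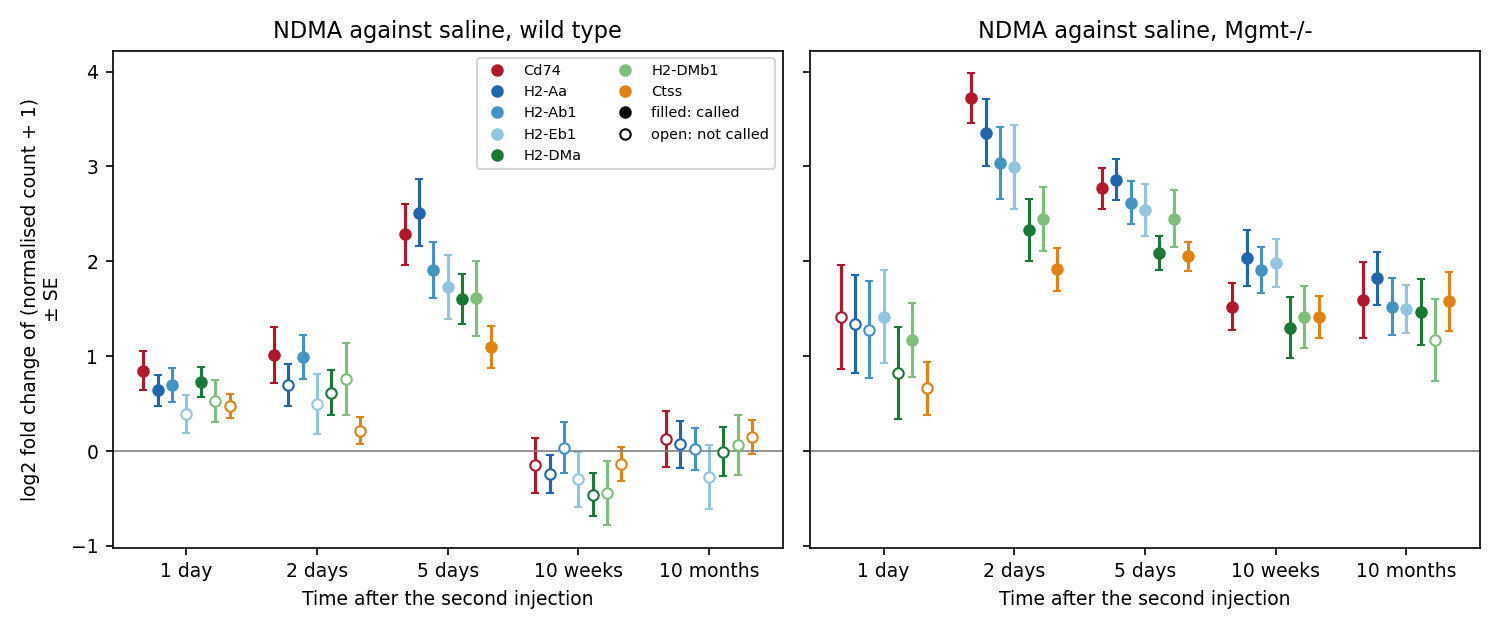
NDMA effect on 7 class II genes in WT (left) and Mgmt-/- (right) at each time after the second injection (x axis), as the log2 fold change of normalised count + 1 with its SE (y axis). Filled points passed the call, and the Mgmt-/- effects run from 1.91 to 3.72 at 2 days, while the WT effects at 10 weeks run from -0.46 to 0.04.

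Cd74 encodes the invariant chain and had the largest rise of the 7 in Mgmt-/- at day 2. In 7 saline mice its level was 6.66 at the lowest, 11.3 at the median and 16.3 at the highest. In 8 NDMA mice it was 90.9, 150 and 431. The lowest NDMA mouse was above the highest saline mouse, so the groups did not overlap. The log2 fold change was 3.72 ± 0.26 (SE; limma, adjusted p = 9.29e-10). At day 5 the saline levels in 6 mice were 10.2, 20.4 and 27.1 and the NDMA levels in 8 mice were 80.8, 122 and 232, again without overlap, with a log2 fold change of 2.77 ± 0.21. At week 10 saline mice had 16.3, 21.6 and 48.1 and NDMA mice 39.6, 63.7 and 165 (n = 8 each). Of the NDMA mice, 7 were above the highest saline mouse, and the log2 fold change was 1.52 ± 0.25 (limma, adjusted p = 0.000116).

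The classical chain genes moved as Cd74 did. H2-Aa in Mgmt-/- at day 2 was 39.8, 56.7 and 97.3 (lowest, median, highest) in saline and 424, 560 and 2403 in NDMA mice. At day 5 it was 67.7, 97.7 and 168 in saline and 407, 732 and 1178 in NDMA mice, and at week 10 it was 45.9, 166 and 387 against 521, 556 and 1251. The NDMA and saline mice did not overlap at any of these 3 times. The log2 fold changes were 3.36 ± 0.35, 2.86 ± 0.22 and 2.04 ± 0.29. H2-Ab1 encodes the partner chain. It was 16.3, 24.2 and 49.0 in saline and 151, 191 and 866 in NDMA mice at day 2, a log2 fold change of 3.04 ± 0.38. At day 5 it was 25.5, 38.6 and 67.3 against 150, 248 and 416 (2.62 ± 0.22), and at week 10 it was 63.2, 80.3 and 266 against 293, 309 and 729 (1.91 ± 0.24). As for H2-Aa, the lowest NDMA mouse was above the highest saline mouse each time.

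H2-Eb1, the I-E beta chain, was 13.3, 18.5 and 29.3 in saline and 70.2, 143 and 824 in NDMA mice of Mgmt-/- at day 2. The log2 fold change was 2.99 ± 0.44 (limma, adjusted p = 0.000188). At day 5 it was 18.4, 39.3 and 58.3 against 88.7, 220 and 411 (2.54 ± 0.28). At week 10 the highest saline mouse, at 181, was just below the lowest NDMA mouse, at 186, and the log2 fold change was 1.99 ± 0.25. The mouse with 824 at day 2 was also the highest for the other 7 members.

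H2-DMa and H2-DMb1 encode the peptide exchange pair. At day 2 in Mgmt-/- H2-DMa was 17.6, 22.2 and 40.1 in saline and 63.0, 117 and 428 in NDMA mice, and H2-DMb1 was 7.51, 12.9 and 23.4 against 43.8, 68.8 and 292. Their log2 fold changes were 2.33 ± 0.33 and 2.45 ± 0.34. H2-DMa in Mgmt-/- at day 5 was 18.6, 28.5 and 43.4 in saline and 83.3, 121 and 177 in NDMA mice, with a log2 fold change of 2.09 ± 0.18. H2-DMb1 was 6.38, 19.3 and 28.96 in saline and 59.1, 89.7 and 145 in NDMA mice, with a log2 fold change of 2.45 ± 0.30. For both genes every NDMA mouse was above every saline mouse at days 2 and 5. At week 10 the groups overlapped: 6 of 8 NDMA mice were above the highest saline mouse for H2-DMa and 5 of 8 for H2-DMb1, and the log2 fold changes were 1.30 ± 0.32 and 1.41 ± 0.33.

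Ctss, the protease of the invariant chain, had the smallest rise at day 2. Its level in Mgmt-/- was 124, 183 and 205 in saline and 420, 564 and 1495 in NDMA mice, which was higher by 1.91 ± 0.23 (log2; limma, adjusted p = 7.49e-06). At day 5 it was 155, 173 and 221 against 486, 754 and 1040 (log2 fold change 2.05 ± 0.15), and at week 10 it was 98.1, 291 and 356 against 541, 641 and 1037 (1.41 ± 0.22). The groups did not overlap at any of these times. In all, 7 of the 8 members had separate groups at day 2, 7 at day 5 and 4 at week 10 (H2-Aa, H2-Ab1, H2-Eb1 and Ctss). Of all genes tested, 6.19%, 6.00% and 2.40% had every NDMA mouse above every saline mouse at these times. Against the 7 members called, 12.4% of all genes tested were called higher in Mgmt-/- at day 2, 11.1% at day 5 and 7.27% at week 10. The median log2 fold change of the 7 members was 2.99, 2.54 and 1.52 at these times, while that of all genes tested was 0.03, 0.03 and 0.04.

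**Figure D2:**
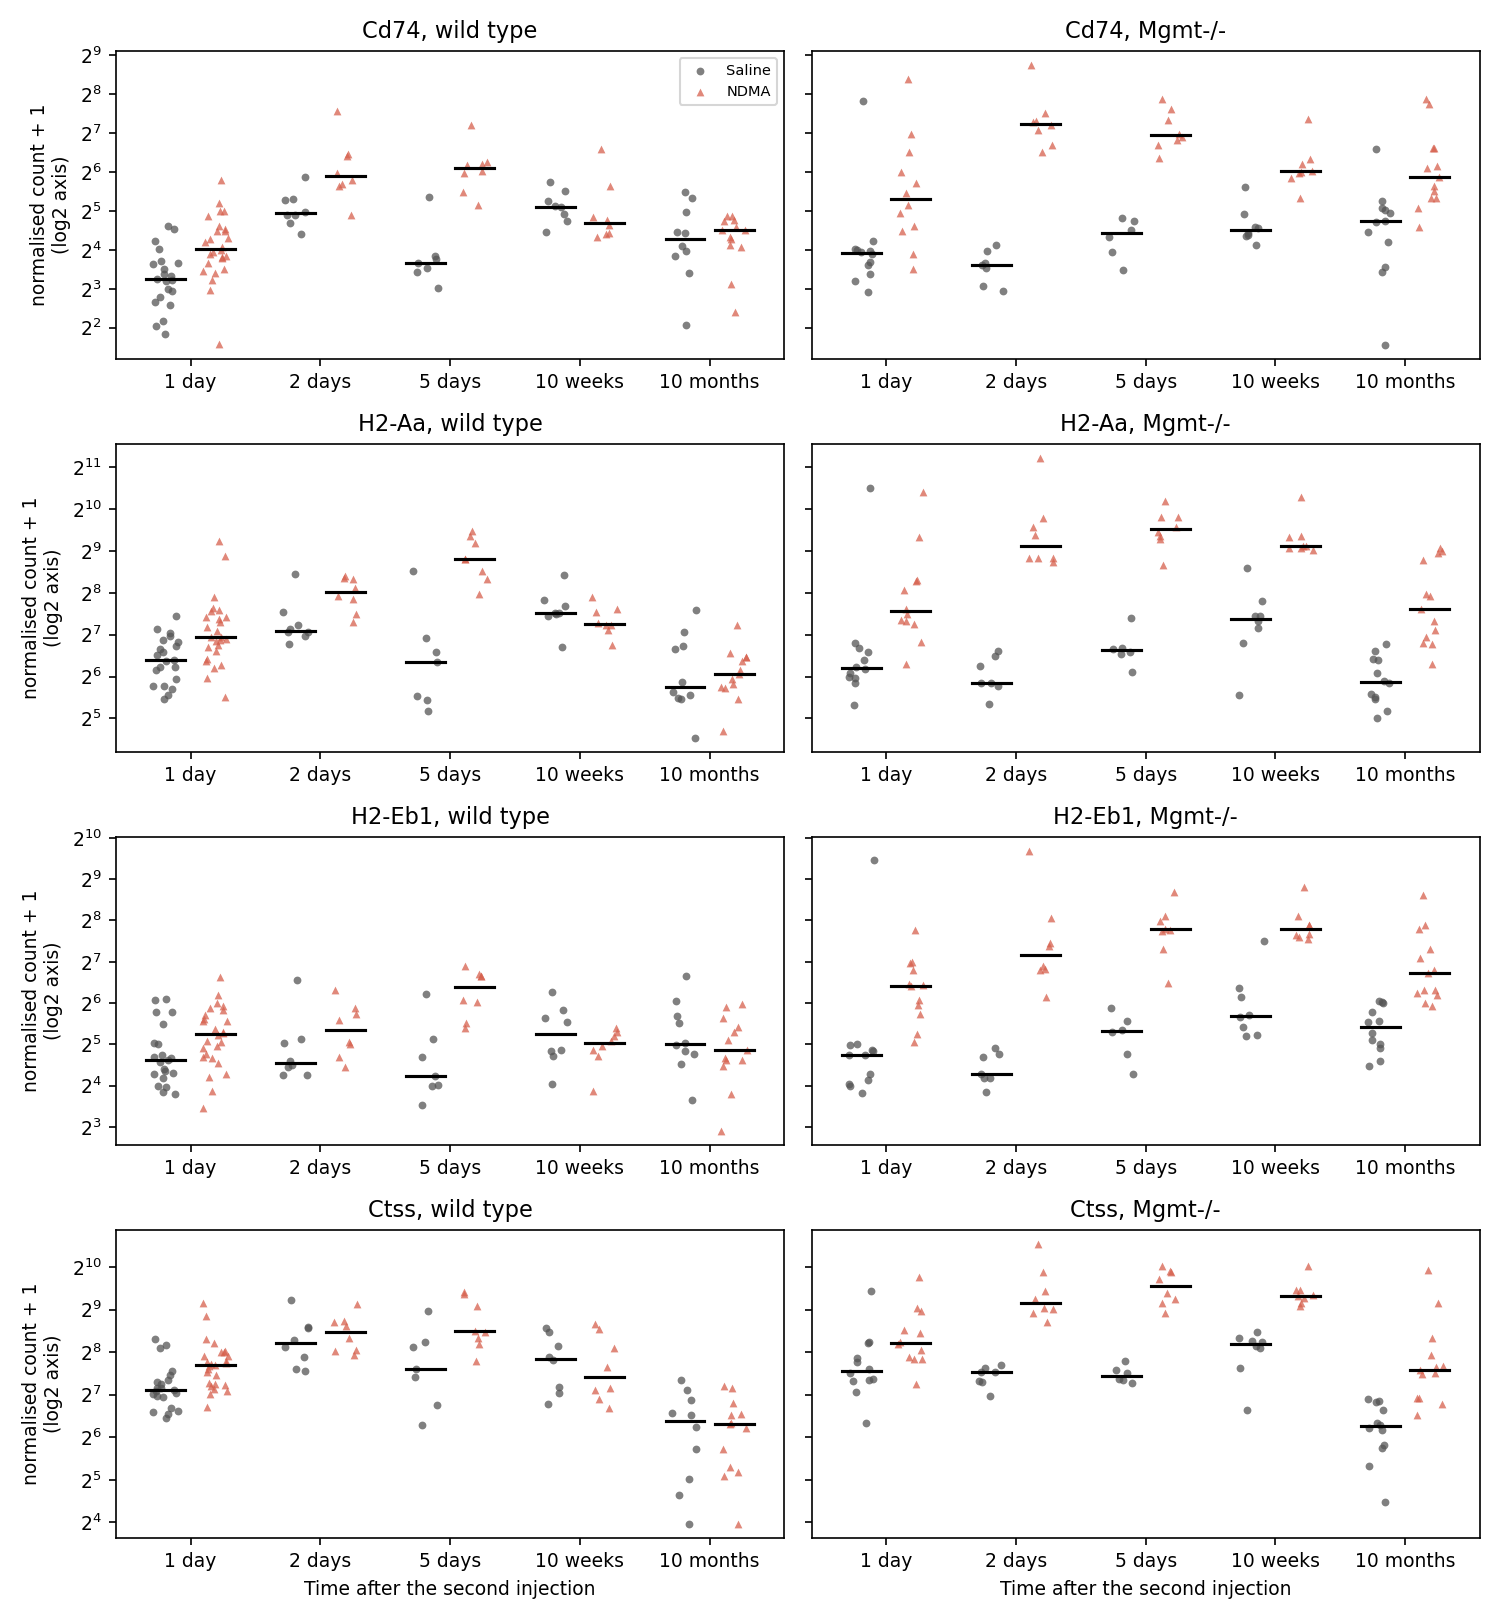
Normalised count + 1 (log2 axis) of Cd74, H2-Aa, H2-Eb1 and Ctss in each library, by time after the second injection, for saline (grey circles) and NDMA (red triangles), in WT (left) and Mgmt-/- (right). Black bars are medians, and the single grey point far above its group at 1 day in Mgmt-/- is the saline male at 1460 for H2-Aa.

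At month 10 in Mgmt-/- 6 of 8 members tested were still higher (all genes, 4.75%). Cd74 was 1.94, 25.6 and 95.5 in 12 saline mice and 23.2, 58.0 and 233 in 13 NDMA mice, higher by 1.59 ± 0.40 (log2; adjusted p = 0.00974 in limma). H2-Aa was 31.1, 57.4 and 109 in saline and 77.5, 196 and 533 in NDMA mice (1.82 ± 0.28, adjusted p = 6.22e-05 in limma). For H2-Aa, H2-Eb1 and Ctss 11 of 13 NDMA mice were above the highest saline mouse, but for Cd74 only 4 were, and no member had separate groups, which 0.129% of all genes tested had. H2-DMb1 missed the call at 1.17 ± 0.44 (limma, adjusted p = 0.086), with NDMA levels of 2.65, 12.9 and 73.0 against 0, 8.09 and 39.5 in saline. Ciita missed it as well, at 0.87 ± 0.38.

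At day 1 in Mgmt-/- the count depended on the saline male described above. With that mouse, 2 of 7 members were called higher, H2-Eb1 (1.42 ± 0.49) and H2-DMb1 (1.17 ± 0.39), and 9.06% of all genes were. In edgeR neither was called (0.87 and 0.90, adjusted p = 0.355 and 0.141), but that fit also lacked 1 NDMA female, the mouse with 1367 for H2-Aa, whose whole reads were not recovered, and limma without the same female called 1. With a pseudocount of 5 H2-Eb1 was not called (limma, adjusted p = 0.0502). Without the saline male all 7 were called, H2-Eb1 at 1.85, Cd74 at 1.83, H2-Aa at 1.73, H2-Ab1 at 1.67, H2-DMb1 at 1.48, H2-DMa at 1.12 and Ctss at 0.83, and 9.83% of all genes were. In edgeR without it all 7 were called as well. H2-Aa was 78.2 at the lowest, 188 at the median and 1367 at the highest in 12 NDMA mice, against 39.1, 72.7 and 1460 in 12 saline mice. All 12 NDMA mice were above the saline median. Within the batch with 8 mice per group (191212Eng) the log2 difference of H2-Aa was 2.16 and that of Cd74 2.29. In the other batch (200803Eng, 4 mice per group) these were -0.31 and -0.35 with the saline male, and 0.70 and 0.69 without it. H2-DMa there was -0.24 without it.

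In WT at day 1 4 of 7 members were called higher, against 5.01% of all genes. Cd74 was 2.54, 8.50 and 23.7 in 21 saline mice and 2.02, 15.4 and 54.5 in 26 NDMA mice, higher by 0.85 ± 0.21 (log2; adjusted p = 0.00172 in limma). The groups overlapped widely, with 5 of 26 NDMA mice above the highest saline mouse. H2-DMa (0.73 ± 0.15), H2-Ab1 (0.70 ± 0.18) and H2-Aa (0.64 ± 0.16) were the other 3 called. Ctss passed the p-value (limma, adjusted p = 0.00546) but not the fold change, at 0.47 ± 0.13, while H2-DMb1 and H2-Eb1 passed neither. Within batches the Cd74 difference was 1.20 in 191212Eng and 1.02 in 210901Eng but -0.21 in 200803Eng, which held 6 NDMA and 4 saline mice, and that of H2-Aa was 0.82, 0.87 and -0.20 in the same order. At day 2 Cd74 (1.02 ± 0.29) and H2-Ab1 (1.00 ± 0.23) were called, against 3.33% of all genes. H2-Ab1 was 35.4, 47.0 and 85.0 in saline and 60.5, 86.0 and 273 in NDMA mice, with 4 of 8 NDMA mice above the highest saline mouse. The shallowest library, with 150038 reads, was the highest NDMA mouse for Cd74 (189, where the next was 87.0), H2-Ab1 (273 and 140) and H2-DMa (116 and 84.0), and the lowest for H2-Aa and H2-Eb1. Without it Cd74 (0.78), H2-Ab1 (0.81) and H2-Aa (0.81) were called. The highest saline mouse at day 2 for 7 of the members was the same female, at 348 for H2-Aa where the next was 186, and without that mouse 5 members were called. Cd74 was no longer called when any of 11 of the 16 mice was left out, while H2-Ab1 was called in all 16 of these fits. On the 5 saline mice with whole reads limma called 0, and edgeR and DESeq2 called 2 each.

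At day 5 all 7 members were called higher in WT, where 2.22% of all genes were. H2-Aa was 35.0, 81.1 and 367 in 7 saline mice and 250, 448 and 718 in 8 NDMA mice, higher by 2.51 ± 0.35 (log2; adjusted p = 0.00198 in limma). Cd74 was 7.06, 11.7 and 40.2 in saline and 34.7, 67.7 and 148 in NDMA mice (2.29 ± 0.32, adjusted p = 0.00195 in limma). All 8 NDMA mice were above the saline median for each of the 7 genes, but no member had separate groups. The same saline female was the highest for all 7 and stood inside the NDMA range, and for Ctss and H2-DMb1 other saline mice did as well. Of all genes tested, 0.220% had separate groups. H2-Ab1 (1.91 ± 0.29), H2-Eb1 (1.73 ± 0.33), H2-DMb1 (1.61 ± 0.39) and H2-DMa (1.60 ± 0.26) lay between these and Ctss (1.10 ± 0.22). Males and females of WT had different batch labels at day 2, day 5 and week 10, where sex thus cannot be told apart from batch.

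H2-Ab1 at day 5 was 20.5, 32.9 and 88.9 in saline and 62.4, 151 and 238 in NDMA mice, with 7 of 8 NDMA mice above the highest saline mouse. Ctss was 77.3, 195 and 498 against 220, 358 and 683, with 3 of 8 above. The saline female with 88.9 and 498 had the next highest saline mouse at 56.3 and 302.

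At week 10 in WT no member was called, and 0.0249% of all genes were called higher. Cd74 was 21.0, 33.6 and 52.5 in saline and 19.2, 24.9 and 95.8 in NDMA mice (n = 8 each), a log2 fold change of -0.15 ± 0.29. The log2 fold changes of the 7 ran from -0.46 to 0.04. At month 10 they ran from -0.27 to 0.15, and 0% of all genes were called higher. H2-Aa was 22.2, 53.1 and 191 in 10 saline mice and 25.0, 65.2 and 149 in 13 NDMA mice, so the NDMA range lay inside the saline range. At both times no member had an unadjusted p under 0.05 in limma, and neither edgeR nor DESeq2 on whole reads called one.

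In the order of medians within Mgmt-/-, H2-Aa was highest in NDMA mice at day 5 (732), followed by NDMA mice at day 2 (560), week 10 (556), month 10 (196) and day 1 (188), then by saline mice at week 10 (166), day 5 (97.7), day 1 (72.7), month 10 (57.4) and day 2 (56.7). Cd74 was highest in NDMA mice at day 2 (150) and lowest in saline mice at day 2 (11.3), and its 5 NDMA medians also lay above its 5 saline medians. In WT, H2-Aa was highest in NDMA mice at day 5 (448) and day 2 (259), but saline mice at week 10 (182) came next, before NDMA mice at week 10 (153), saline mice at day 2 (136) and NDMA mice at day 1 (123). For H2-Aa in both genotypes the range of every group overlapped that of the next in the order.

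Whether NDMA acted differently in the 2 genotypes was tested as an interaction in edgeR on whole reads, called at an adjusted p-value under 0.05. At day 1 0 of 7 members differed, and 0% of all genes had a larger effect in Mgmt-/-. The differences lay between -0.25 and 0.27, none with an unadjusted p under 0.05, and a limma fit also called 0. The edgeR fit lacked the NDMA female without whole reads. Without the saline male, edgeR gave 0.89 for H2-Ab1, 0.84 for Cd74, 0.84 for H2-Aa, 0.65 for H2-DMb1, 0.26 for H2-DMa and 0.13 for Ctss. H2-Eb1 then had the largest difference, 1.34 (edgeR, adjusted p = 0.0592), and 0 were called. At day 2 5 of 7 did, against 2.50% of all genes: Cd74 by 2.78 ± 0.48 (log2 difference of effects, SE; adjusted p = 0.00107 in edgeR), H2-Aa by 2.75 ± 0.52, H2-Eb1 by 2.67 ± 0.75, H2-Ab1 by 2.20 ± 0.58 and Ctss by 1.70 ± 0.29. H2-DMa (1.75 ± 0.51) and H2-DMb1 (1.67 ± 0.77) missed the threshold. This fit held 5 of the 8 WT saline mice, since whole reads were not recovered for the other 3, and limma on all 8 called 7 members. At day 5, when both genotypes had all 7 called higher, only Ctss differed (1.00 ± 0.28, adjusted p = 0.0391 in edgeR), against 1.51% of all genes. This call was lost in limma (0.95, adjusted p = 0.0770) and in edgeR without sex and batch terms (1.18, adjusted p = 0.125). The other 6 differed by 0.44 to 0.77. At week 10 all 7 differed, by 1.52 ± 0.28 for Ctss up to 2.26 ± 0.38 for H2-Eb1, against 3.74% of all genes. At month 10 H2-Aa (1.81 ± 0.42) and H2-Eb1 (1.82 ± 0.43) differed, against 0.577%. The genotypes shared 2 batches at day 1, 1 at month 10 and 0 at day 2, day 5 and week 10, so at those 3 times batch and genotype cannot be told apart.

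**Figure D3:**
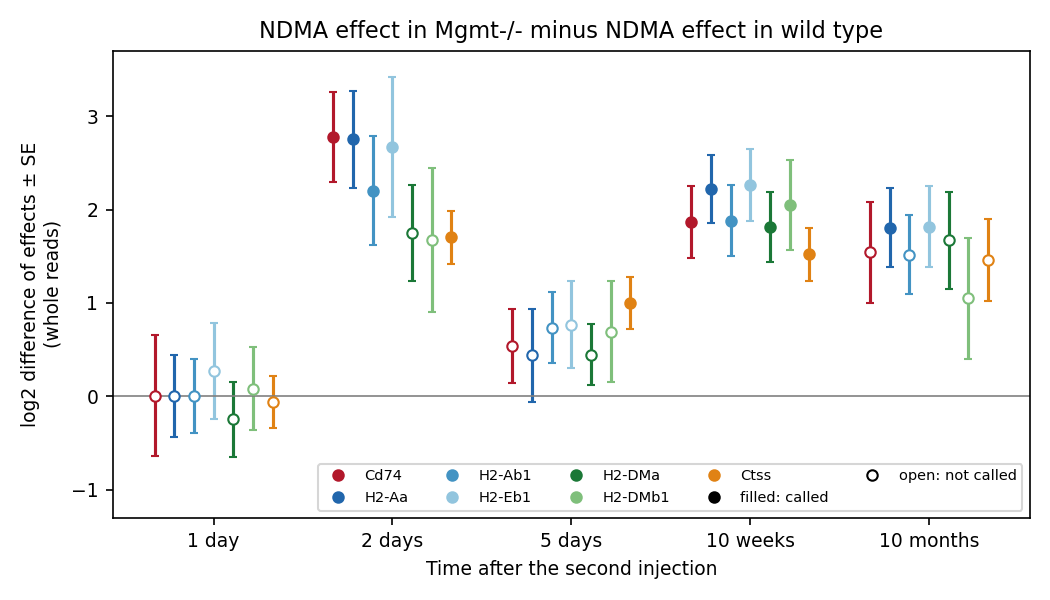
Difference between the NDMA effect in Mgmt-/- and that in WT (log2, edgeR on whole reads, with SE; y axis) for 7 class II genes at each time (x axis). Filled points had an adjusted p under 0.05: none at 1 day, 5 at 2 days, 1 at 5 days, 7 at 10 weeks and 2 at 10 months.

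Effects in males and females were compared within each genotype and time. One member at one comparison passed: Ctss in Mgmt-/- at month 10, where the male effect was larger by 2.15 ± 0.46 (limma, adjusted p = 0.0431), against 0.228% of all genes. Mean Ctss there was 53.3 in 5 saline and 414 in 6 NDMA males, and 92.4 in 7 saline and 145 in 7 NDMA females. The same sign was seen for H2-DMb1 (2.39), H2-DMa (2.23), H2-Ab1 (1.90), H2-Aa (1.68), Cd74 (1.46) and H2-Eb1 (1.34), with adjusted p-values in limma between 0.0648 and 0.297. Ciita had the other sign, at -0.10 (limma, adjusted p = 0.955). The within-sex H2-Aa difference was 2.77 in males and 1.09 in females.

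Ciita, the transactivator, was near the limit of detection. In 36 of 114 WT and 13 of 93 Mgmt-/- liver libraries with whole reads it had 0 reads, its median was 1 read in WT and 3 in Mgmt-/-, and no library had more than 23. In Mgmt-/- at day 2 it was 0, 0.577 and 4.11 normalised counts in saline and 2.32, 4.99 and 15.6 in NDMA mice. In WT at day 1 it was 0, 0.659 and 3.38 in saline and 0, 2.43 and 13.8 in NDMA mice. Of the NDMA mice 5 of 8 in the first comparison and 8 of 26 in the second were above the highest saline mouse. With no filter on low values, Ciita rose in WT at day 1 (1.28 ± 0.24; limma, adjusted p = 8.42e-05) and in Mgmt-/- at day 2 (1.80 ± 0.42; limma, adjusted p = 0.00337). At day 5 in Mgmt-/- it missed at 1.13 ± 0.40 (limma, adjusted p = 0.0613), while DESeq2 on whole reads gave 1.68 (adjusted p = 0.0436), and at week 10 it was 0.35 ± 0.49. In Mgmt-/- at day 1 it was 0.97 ± 0.44 (limma, adjusted p = 0.145) with the saline male and 1.35 ± 0.34 (limma, adjusted p = 0.00472) without it. In WT it was 0.07 ± 0.43 at day 2 and 0.46 ± 0.54 at day 5 (limma, adjusted p = 0.775), when the other 7 members were called.

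As the H2 genes moved together, their start sites were read from RefSeq promoters (GRCm38.p6), searched over 250 bases before the start on both strands. Promoters of 5 members were searched: H2-Aa, H2-Eb1, H2-DMb1, H2-DMa and Ctss. Those of the other members were not searched, so whether they hold these motifs was not tested. Class II promoters are known for an X box, bound by the RFX complex, followed by a Y box, bound by NF-Y, and this platform recruits CIITA. The same pair of motifs stands in H2-Aa and H2-Eb1, and their stretches are shown with the X box core CTNGNAACT and the Y box ATTGG in capitals. Stretches that overlap an annotated exon are not shown, which left out that of H2-DMb1. The core was spelled after these promoters had been seen.
H2-Aa, chr17:34287852-34287922 (minus strand): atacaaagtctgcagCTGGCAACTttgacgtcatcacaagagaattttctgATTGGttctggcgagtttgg
H2-Eb1, chr17:34305758-34305827 (plus strand): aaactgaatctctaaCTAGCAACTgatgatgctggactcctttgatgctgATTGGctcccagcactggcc
The core and the Y box were 27 bases apart in H2-Aa and 26 in H2-Eb1, and H2-DMb1 held the same pair with 27 bases between. Of 32851 RefSeq promoters 3.47% held the core, 33.8% held the Y box and 0.0731%, or 24, held both in this order with 20 to 32 bases between. Besides H2-Aa, H2-Eb1 and H2-DMb1, the 24 were genes outside the members and pathway lists, such as Acaa1a and Kat7. As the core was spelled from promoters already seen, its presence in them is not a test. H2-DMa held no core, and a Y box in 1 of its 2 entries. Ctss held neither. It held GAAANNGAAA, the letters of an interferon-stimulated response element, which 2.98% of promoters held, and this stretch is shown with those letters in capitals.
Ctss, chr3:95526745-95526785 (plus strand): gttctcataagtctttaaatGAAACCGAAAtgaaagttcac

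The other genes of the pathway came from fixed lists. The factors that bind the X and Y boxes (Rfx5, Rfxap, Rfxank, Nfya, Nfyb, Nfyc and Creb1) had 0 of 4 to 7 tested members called in every comparison, and the most abundant, Nfyb, had a median of 96.5 in saline and 75.01 in NDMA Mgmt-/- mice at day 2. Of the other class II genes, H2-Oa, H2-Ob, H2-DMb2 and H2-Eb2, which had a summed median of 5.77 in saline and 13.0 in NDMA Mgmt-/- mice at day 2, only H2-DMb2 passed the filter, once (Mgmt-/- day 5, 0.63, not called). Of 10 endosomal proteases and processing genes, 3 were higher in Mgmt-/- at day 2 (Cd63 1.58, Ctsd 1.28 and Lgmn 0.90), 4 at day 5 and 3 at week 10, beside 12.4%, 11.1% and 7.27% of all genes. In WT 2 were higher at day 1 and 1 at day 5, beside 5.01% and 2.22%. March8, a ubiquitin ligase of the turnover list, was called lower in Mgmt-/- at day 2 (-0.93) and day 5 (-0.77, where 6.71% of all genes were lower), and March1, the ligase that targets class II molecules, was called higher at day 5 (1.56).

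Of 8 listed co-stimulatory and checkpoint genes and receptor partners, at most 3 passed the filter in any comparison. The filter used the mean over both groups, so a gene low in saline mice could pass through the NDMA mice. In Mgmt-/- at day 1 the median of Cd40 was 2.13 in the 11 saline mice without the male and 12.1 in NDMA mice. The share of tested genes called is thus partly set by the filter. In WT 3 of 3 tested were higher at day 1, 0 of 3 at day 2 and 1 of 2 at day 5. Of all genes, 5.01%, 3.33% and 2.22% were. In Mgmt-/- 2 of 3 were higher at day 1 and 3 of 3 at days 2 and 5, beside 9.06%, 12.4% and 11.1% of all genes. Those at days 2 and 5 were Cd274, which encodes PD-L1 (3.37 at day 2 and 2.62 at day 5), Cd40 (2.07 and 1.99) and Cd86 (1.28 and 1.01). Of the interferon gamma list, Irf1, a transcription factor that interferon gamma induces, was called in Mgmt-/- at days 1, 2 and 5, and was higher by 1.88 at day 2. In WT at day 5 0 of 6 of the list were called, where 2.22% of all genes were. Ifng itself had a median of 0 in 9 of the 10 comparisons.

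Genes of the class I pathway, which shows cytosolic peptides to CD8 T cells, were also called higher in Mgmt-/- in the first days. In Mgmt-/- 6 of 9 tested class I genes were higher at day 1 (with the saline male), 8 of 8 at day 2 and 6 of 8 at day 5. Of all genes tested, 9.06%, 12.4% and 11.1% were. The largest at day 2 were Tap1 (2.39), Psmb9 (2.33) and Psmb8 (1.94). At week 10 0 of 8 were called, with a median log2 fold change of 0.36, and at month 10 0 of 9. Of all genes, 7.27% and 4.75% were called higher then. The class II genes at these times had 7 of 7 and 6 of 8 called. No test of the difference between the lists was made.

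Markers of leukocytes were called higher in some of the same comparisons. For every list the filter used the mean over both groups, so a marker low in saline mice could pass through the NDMA mice. The share of tested markers called is thus partly set by the filter. Of all genes tested in Mgmt-/-, 12.4% were called higher at day 2, 11.1% at day 5 and 7.27% at week 10. In Mgmt-/- the T and NK cell list had 7 of 7 tested genes higher at days 2 and 5, and its summed level was 40.0, 59.7 and 68.1 in saline against 215, 381 and 525 in NDMA mice at day 2. Gzma was its most abundant gene (median 18.5 and 133) and Cd3e had a median of 0. At week 10 1 of 4 tested was higher and at month 10 none passed the filter. Recruited monocyte markers had 4 of 5 tested genes higher at days 2 and 5 and 4 of 4 at week 10, with summed levels of 94.99, 329 and 529 against 798, 966 and 1239.6 at week 10, and Lyz2 was the most abundant. Ccr2 was higher by 3.43 at day 2 and 2.73 at week 10. Kupffer cell and macrophage markers had 5, 6 and 5 of 10 higher at day 2, day 5 and week 10, led by Marco, Marco and C1qc, with Cd5l the most abundant and none called lower. At day 1 in Mgmt-/- 1 of 10 was higher (Marco, 1.19), near the 9.06% of all genes. In the same comparison 3 were lower, beside 8.64% of all genes: Clec4f (-1.23), Csf1r (-0.97) and Vsig4 (-0.87). In WT Csf1r was lower at day 1, and Clec4f and Vsig4 were lower at day 2. Ptprc in Mgmt-/- was higher by 1.90 at day 2 and 1.96 at day 5. At week 10 it was 1.67 and missed the call (limma, adjusted p = 0.055).

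B cell and dendritic cell markers were sparse, and the same limit of the filter holds for them. No B cell gene was called higher in any comparison, Cd79b was called lower in Mgmt-/- at day 1, and 0 to 2 of the 10 passed the filter. Their summed level in Mgmt-/- at day 2 was 19.8, 27.7 and 37.0 in saline and 9.65, 30.6 and 45.4 in NDMA mice, with Cd79b the most abundant and Cd79a, Pax5, Blk, Fcmr and Cr2 at a median of 0. Dendritic cell markers summed to 10.8, 17.2 and 21.9 in saline and 19.6, 33.9 and 56.4 in NDMA mice, with Flt3 at a median of 0, and Ccr7 was the only member called (Mgmt-/- day 5, 2.09). Of 5 hepatocyte markers 3 were lower in Mgmt-/- at day 1 (Serpina1c, Alb and Apoa1), where 8.64% of all genes were, and 3 at day 2 (Serpina1c, Ttr and Alb), where 7.50% were. Fgb was 0.11 at day 1 and 0.12 at day 2, not called. The neutrophil list had no gene called higher. In WT at day 5 the T and NK list had 3 of 6 higher, the monocyte list 1 of 4 and the Kupffer list 1 of 10. Of all genes, 2.22% were. The part of these cells in the class II result was not tested.

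Members were then compared across libraries as deviations from the mean of their time and treatment group. Over 117 WT libraries the Spearman correlations between pairs of the 7 members without Ciita ran from 0.24 to 0.69 with a median of 0.43, and over 94 Mgmt-/- libraries from 0.44 to 0.83 with a median of 0.60. Pairs with Ciita had medians of 0.25 and 0.22. The genes most like the mean deviation of the 8 members in Mgmt-/- were Aif1 (0.73), Myo1f (0.69), Rtp4, Cd52, Fcgr3, C1qb, Ms4a6c, Psmb9, Ly86 and Alox5ap (0.63). In WT they were Serpina3g (0.65), Gbp2b (0.65), Gbp2, Zbp1, Cxcl9, Psmb9, Tmsb4x, Iigp1, Cybb and H2-T22 (0.59). Psmb9 was the 1 gene in both lists. The summed markers with the highest correlation were the T and NK list in WT (0.62) and the Kupffer list in Mgmt-/- (0.59). Close to these were the Kupffer (0.56) and recruited monocyte (0.55) lists in WT. In Mgmt-/- the recruited monocyte list had 0.58 and the T and NK list 0.55. The B cell list had 0.32 in WT and 0.14 in Mgmt-/-, and the dendritic cell list 0.31 and 0.17. Libraries of a group came from up to 3 batches and differed in depth. As deviations were taken from the group mean alone, differences of batch, sex and depth within a group remain in them. Log2 reads had a correlation of -0.20 in WT and -0.02 in Mgmt-/-.

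Saline levels were compared across ages within each genotype. No member was called at day 5 or week 10 against day 1 in limma, where H2-Eb1 in WT at day 5 and H2-DMa in Mgmt-/- at week 10 had an unadjusted p under 0.05, and edgeR called 2 members lower in Mgmt-/- at week 10 with the day 1 saline male and 0 without it. At month 10 against day 1, 3 of 7 were lower in WT (21.1% of all genes were) and 4 of 7 in Mgmt-/- (24.5%). Against week 10, 4 of 7 were lower in WT (21.2%) and 3 of 7 in Mgmt-/- (20.0%). Ctss and H2-DMa were lower in all 4 of these contrasts. In WT saline mice the median of Ctss was 138 at day 1, 294 at day 2, 195 at day 5, 229 at week 10 and 83.0 at month 10. From week 10 to month 10 it fell by 1.90 ± 0.21 on the log2 scale in WT and by 1.87 ± 0.22 in Mgmt-/-, where the medians were 291 and 75.2. H2-DMa fell by 1.62 ± 0.27 and 1.55 ± 0.33, from medians of 27.1 to 8.48 in WT and 31.0 to 9.63 in Mgmt-/-.

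H2-Aa fell from week 10 to month 10 by 1.41 ± 0.29 in WT and fell by 1.37 ± 0.36 in Mgmt-/-, and Cd74 by 0.95 ± 0.32 in WT. H2-Ab1, the partner chain of H2-Aa, was -0.04 ± 0.31 in WT and -0.68 ± 0.39 in Mgmt-/- and was not called, and neither was H2-Eb1. Without the day 1 saline male, which enters this fit through the shared terms, H2-Ab1 was called lower in Mgmt-/- (-0.69; limma, adjusted p = 0.0230) and the count went from 3 to 4. The median of H2-Ab1 in WT was 59.4 at week 10 and 51.2 at month 10, well inside the spread of either group. Against day 1, the Mgmt-/- calls of H2-Aa and H2-DMb1 were lost without the day 1 saline male: the count fell from 4 to 2, and H2-Eb1 was then called higher at month 10 (0.82). H2-Ab1 (1.32) and H2-Eb1 (1.36) were then also called higher at week 10 than at day 1. The day 1 saline mice of WT shared 1 batch (200803Eng) with later ages, with 4 mice at day 1 and 3 at month 10. Those of Mgmt-/- shared 191212Eng with day 2 and day 5 (8 mice at day 1, 7 at day 2 and 6 at day 5) and 200803Eng with week 10 and month 10. The latter batch held 4 mice at day 1, the saline male among them, 8 at week 10 and 12 at month 10.

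**Figure D4:**
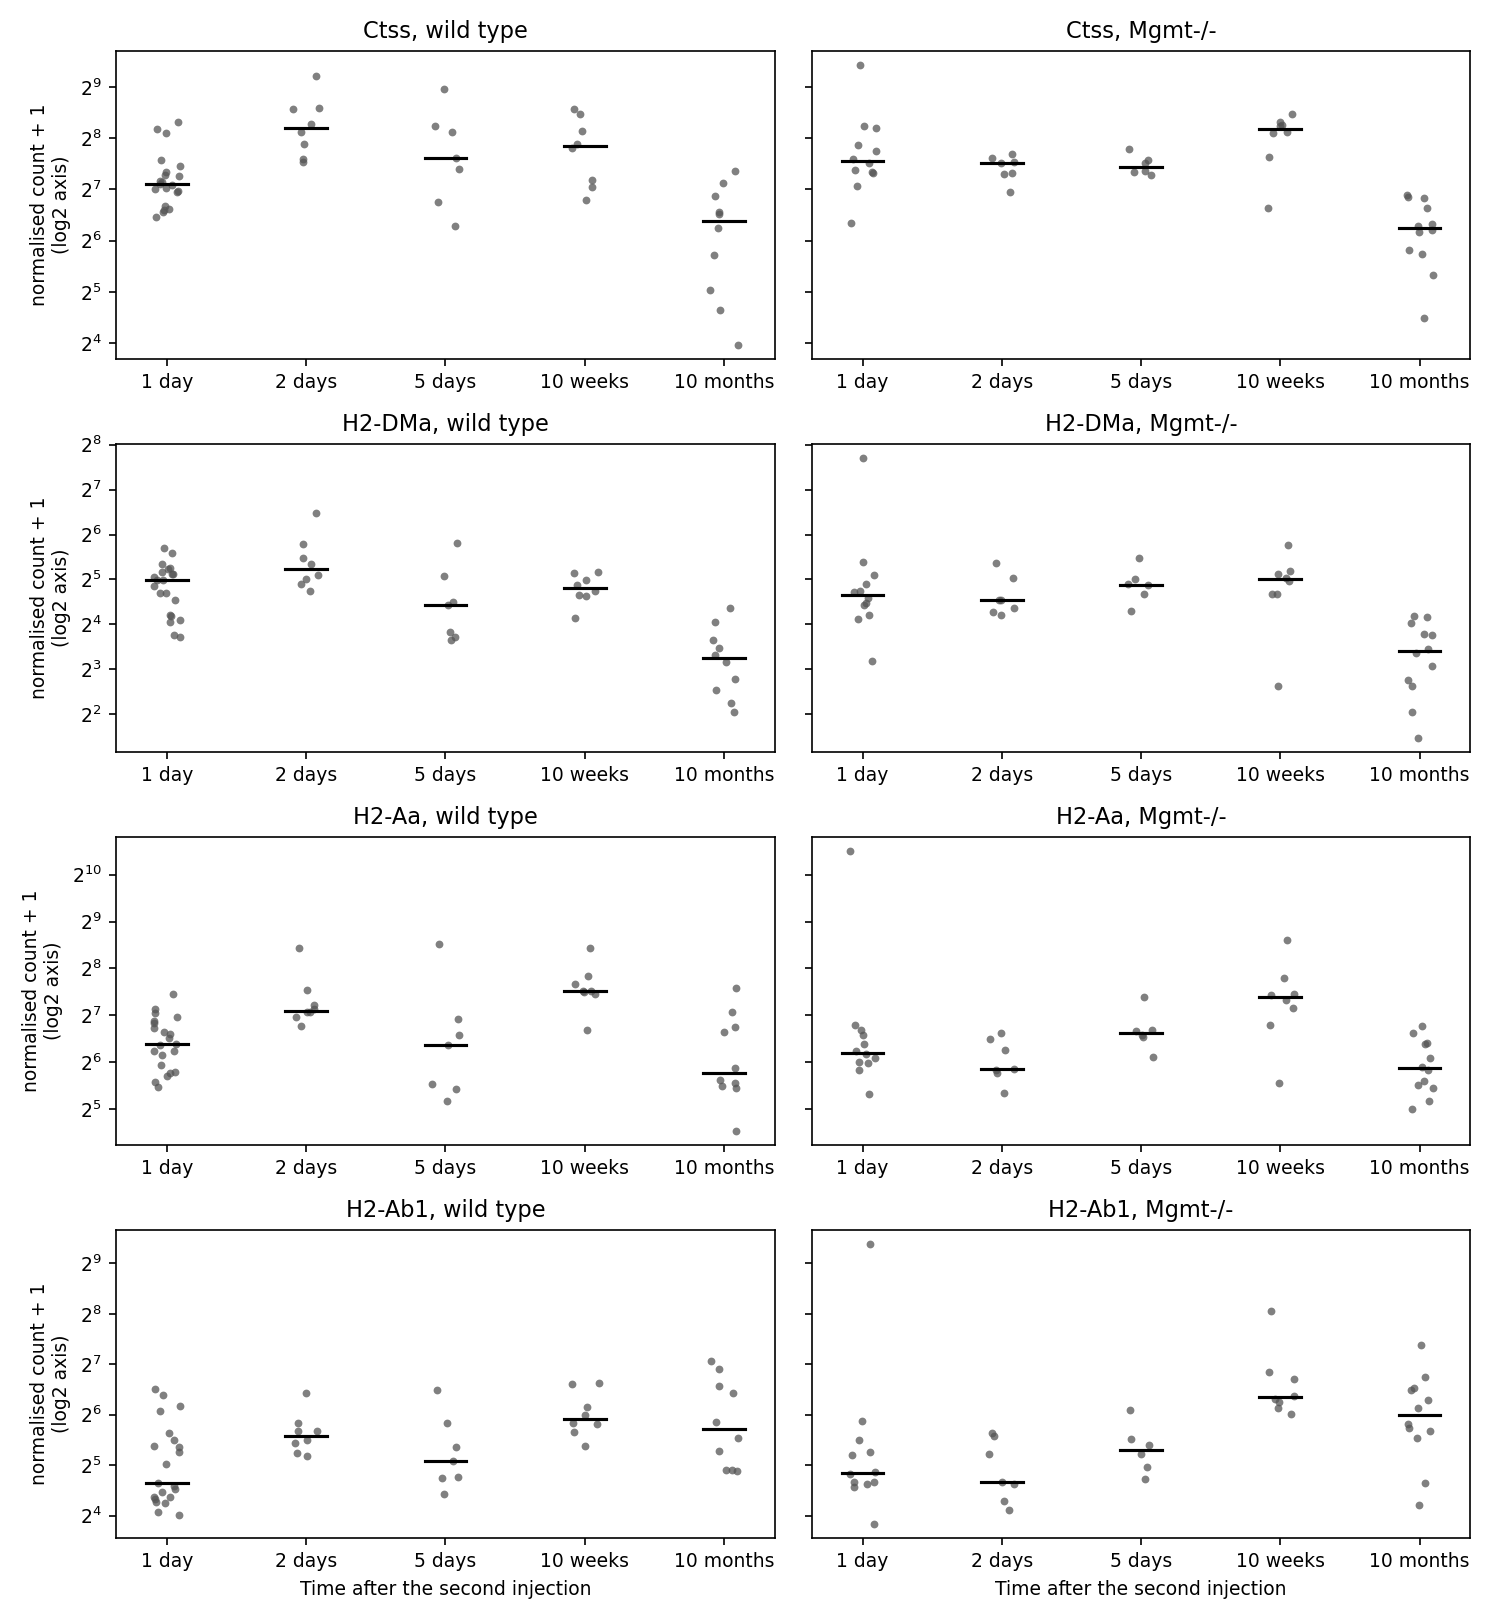
Normalised count + 1 (log2 axis) of Ctss, H2-DMa, H2-Aa and H2-Ab1 in each saline library, by time after the second injection (x axis), in WT (left) and Mgmt-/- (right), with medians as black bars. Ctss, H2-DMa and H2-Aa were lowest in median at 10 months in both genotypes apart from H2-Aa in Mgmt-/- at 2 days, while the medians of H2-Ab1 at 10 months, 51.2 and 62.5, were above those at 1 day, 24.0 and 27.7.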

How the data were processed

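Per the labels and the study's methods, the authors aligned 3′ digital gene expression reads with STAR to GRCm38, made gene counts with ESAT and scaled them by DESeq2 size factors, for each genotype by itself. The deposited unit is thus a normalised signal; tool versions and the annotation are not given in the sources used here. Values were whole reads (tolerance 0.1) in 209 of 213 libraries, which gave the depth of each, and whole reads were used for edgeR and DESeq2. Of 214 labelled samples 1 was not analysed here.

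NDMA was compared with saline at each time in limma 3.58.1 (trend and robust options, R 4.3.3) on log2(value + 1), with sex and batch as terms and a mean of at least 5. Saline ages were fitted with time, sex and batch, and sex by NDMA in limma. Genotype by NDMA was fitted in edgeR 4.0.16 (quasi-likelihood test), with sex and batch as terms. P-values were adjusted over all genes by the Benjamini-Hochberg method. Fits of NDMA, genotype and age were also run on simulated counts. These held no differences of batch, sex or litter and no outlying mouse, so they do not cover such effects. Alternatives were pseudocounts of 0.5 and 5, no filter, a mean of at least 20, no covariates, the same total in every library, edgeR, DESeq2 1.42.0, 1 batch and leaving out mice. The labels do not name litters, so mice of a group may share one, and p-values measure the spread between mice. No pair of libraries agreed within sampling noise.

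The members and lists were chosen with earlier results of these data known. Genes named were the 8 members, at most 3 called genes per list and comparison with the largest log2 fold change, the 10 most like genes per genotype, and the most abundant and zero markers. Positions are from GENCODE vM21, promoters from RefSeq. Plots were drawn with matplotlib 3.10.9 (Python 3.11.15, pandas 2.3.3, numpy 2.4.6, scipy 1.17.1). The values of 1 gene of the interferon gamma list are not reported here.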

Additional observations from a re-analysis of the deposited data

Results flagged for a closer look

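In groups of 4 to 10 mice, 19 of 104 sets of values of a member held a mouse set apart by Dixon's criterion at the 95% level, where chance gives about 1 in 20, or 5.2. In Mgmt-/- NDMA mice at day 2 the highest mouse stood apart at 431 normalised counts for Cd74, 2403 for H2-Aa, 866 for H2-Ab1, 428 for H2-DMa and 292 for H2-DMb1, and it was the same mouse for each. In Mgmt-/- NDMA mice at week 10 the highest stood apart at 1037 for Ctss, 1251 for H2-Aa and 449 for H2-Eb1. In Mgmt-/- saline mice at week 10 the lowest stood apart at 98.1 for Ctss and 5.22 for H2-DMa and the highest at 266 for H2-Ab1.

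In WT saline mice at day 2 the highest stood apart at 348 for H2-Aa, 42.5 for H2-DMb1 and 92.7 for H2-Eb1, and at day 5 the highest was 40.2 for Cd74. In WT NDMA mice at week 10 the highest stood apart at 205 for H2-Ab1 and 41.1 for H2-DMa, and the lowest at 1.75 for H2-DMb1 and 13.7 for H2-Eb1. The values of H2-Ab1, H2-DMa and H2-Eb1 came from 1 shallow library of 270673 reads, in which 1 read was 6.84 normalised counts.

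The NDMA effect differed between genotypes in edgeR in 15 member and time pairs. At day 2 the log2 difference, Mgmt-/- minus WT, was 2.78 for Cd74, 2.75 for H2-Aa, 2.20 for H2-Ab1, 2.67 for H2-Eb1 and 1.70 for Ctss. At day 5 it was 1.00 for Ctss. At week 10 it was 1.87 for Cd74, 2.22 for H2-Aa, 1.88 for H2-Ab1, 2.26 for H2-Eb1, 1.81 for H2-DMa, 2.05 for H2-DMb1 and 1.52 for Ctss. At month 10 it was 1.81 for H2-Aa and 1.82 for H2-Eb1. The effect on Ctss in Mgmt-/- at month 10 was larger in males by 2.15 (limma).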

How the results depend on the processing

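The counts of members called higher in Mgmt-/- at day 2, day 5 and week 10 were 7 whichever mouse was left out, and 0 in WT at week 10. Leaving out 1 mouse moved the count in WT between 1 and 5 at day 2 and between 6 and 7 at day 5. In Mgmt-/- at day 1 the count of 2 became 1 with a pseudocount of 5, 6 with the same total in every library, 0 in edgeR (which also lacked 1 NDMA female without whole reads), 1 in limma without that female and 7 in batch 191212Eng alone. Without the saline male it became 7 in limma, 7 in edgeR and, with no filter, 8. The alternatives that leave out either mouse were chosen after seeing the data, as was limma on the WT mice with whole reads at day 2, where the count of 2 became 0. In Mgmt-/- at day 1 the same total moved the median of all genes from 0.02 to 0.20. In edgeR 2 members were lower in Mgmt-/- at week 10 than at day 1, where limma gave 0, and 7 at month 10, where limma gave 4. Without the saline male edgeR gave 0 and 2, and limma 2 at month 10. From week 10 to month 10 edgeR without it gave 5, where limma gave 3. At day 5 the genotype count of 1 became 0 without sex and batch terms and 0 in limma. Reversals from day 1 to month 10 were Cd74 in WT and H2-Eb1 in Mgmt-/-. Cd74 was 0.95 without batch (limma, adjusted p = 0.00174) and -0.13 with it. H2-Eb1 was 0.82 without the saline male (limma, adjusted p = 0.0450) and -0.40 with it. The causes were not tested. Apart from 98 counts of fits that left out 1 named mouse, 164 of 178 counts stayed within 1.5 times. The 178 still held settings that left out shallow libraries, or the saline male along with another change. No paired analysis was possible because the replicate names belong to single mice. Depth limited Ciita, with a median of 1 or 3 reads.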

Other observations

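Lyve1, a hyaluronan receptor of lymphatic and sinusoidal endothelium, was called higher in Mgmt-/- at all 5 times, while Stab2, a scavenger receptor of the same cells, was called lower at days 1, 2 and 5. At day 1, leaving out the saline male, the list of 5 genes went both ways. Medians in the 11 other saline mice and in NDMA mice were 49.9 and 92.9 for Lyve1, and 26.0 and 29.6 for Pecam1. They were 45.5 and 18.7 for Stab2, 197 and 99.5 for Clec4g, and 44.4 and 27.6 for Kdr. Of 5 stellate cell markers 4 were lower in Mgmt-/- at day 1, 3 at day 2 and 2 at day 5, with Reln and Colec11 among them each time. Of all genes tested, 8.64%, 7.50% and 6.71% were lower at these times. The day 1 count is given with the saline male, whose stellate cell markers summed to 733 against at least 781 in the other saline mice. Spp1, which encodes osteopontin and stood in the cholangiocyte list, had a median of 75.9 in saline and 805 in NDMA Mgmt-/- mice at week 10 and was called higher there and at month 10, where the medians were 65.8 and 336.

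In each of the 4 shallow NDMA libraries of WT females, H2-Ab1 was the highest of its NDMA group (273, 238, 205 and 97.6 at day 2, day 5, week 10 and month 10) and H2-Eb1 the lowest (21.0, 41.0, 13.7 and 6.50). This was noticed after their values were seen, and its cause was not tested.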
